A study of Homo sapiens with 42 samples.

Results

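The genes described here are 10 non-coding snoRNA host genes of K562 cells, namely SNHG1, SNHG3, SNHG5, SNHG6, SNHG7, SNHG8, SNHG12, SNHG15, SNHG16 and GAS5. They were taken by symbol from the 58243 gene rows of 2 count tables. Each symbol matched 1 row, and all 10 passed the filter on low counts in both tables. K562 is an established line from a chronic myeloid leukemia and carries the BCR-ABL1 fusion kinase. Untreated cells (CTRL) were compared with cells given 1 μM of the BCR-ABL1 inhibitor imatinib (IM) for 1, 6 or 18 h. Other cells received 5 μM JTE-607 (JTE), which inhibits the 3′-end nuclease CPSF73, for 1, 6 or 18 h, or 110 mM KCl, an osmotic stress, for 1 or 3 h. Poly(A) RNA of whole cells ("mRNA") was sequenced for all 9 groups. Nuclear RNA depleted of ribosomal RNA was sequenced for CTRL, IM 1h, IM 18h, JTE 1h and KCl 1h. Each of the 14 groups held 3 biological replicates of the same cell line, 42 libraries in all. In such bulk RNA, fewer cells that express a gene and less of its RNA per cell cannot be told apart.

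A snoRNA host gene is transcribed by RNA polymerase II and spliced, and its introns carry small nucleolar RNAs (snoRNAs). Box C/D snoRNAs (SNORD) guide 2′-O-methylation and box H/ACA snoRNAs (SNORA) guide pseudouridylation, mainly of ribosomal RNA, and SNORA73A and SNORA73B are known for their part in processing the ribosomal RNA precursor. The spliced host transcript is often the by-product. In GAS5 and several SNHG genes it begins with a run of pyrimidines, like the mRNAs of ribosomal proteins, and is removed by nonsense-mediated decay (NMD) once ribosomes reach it, so that GAS5 is known to build up in growth-arrested cells. GAS5 and SNHG15 are also known as short-lived RNAs.

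A gene is named as called, risen or fallen where edgeR's quasi-likelihood test, adjusted over all genes by Benjamini-Hochberg, gave an adjusted p below 0.05 and the log2 fold change (log2 change) exceeded the threshold of 0.6 in size. Levels are in CPM, counts scaled by the TMM-adjusted total of each library. Library totals ran from 16439848 to 62953314 counts in mRNA and from 16175394 to 25103205 in nuclear RNA, and the deepest libraries were replicates 2 and 3 of KCl 1h mRNA. In CTRL the K562 markers GATA1, TAL1, KLF1, HBG1, HBZ, BCR and ABL1 averaged at least 10 CPM in both fractions. Of the markers of other cells, CD3E, MS4A1, ALB and COL1A1 averaged below 1 CPM and EPCAM stood at 91.1 CPM in CTRL mRNA. MALAT1, a nuclear RNA, averaged 13201 CPM in nuclear CTRL and 2662 CPM in CTRL mRNA.

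On hg38 the members lie apart from each other on 8 chromosomes. SNHG3 spans chr1:28505980-28510892 on the plus strand, with SNHG12 at chr1:28578538-28582983 and GAS5 at chr1:173863900-173868882 on the minus strand of the same chromosome. SNHG8 (chr4:118278709-118279823) and SNHG16 (chr17:76557766-76565348) lie on plus strands. SNHG5 (chr6:85660950-85678736), SNHG15 (chr7:44983023-44986961), SNHG6 (chr8:66921684-66926398), SNHG7 (chr9:136721366-136728184) and SNHG1 (chr11:62851988-62855914) lie on minus strands. Their counted exons are the union over all annotated isoforms, including isoforms that keep introns. These exons covered 95.6% of the SNHG1 row but 15.7% of the SNHG5 row, so that a host count holds spliced and, to differing degrees, unspliced RNA. Counting ignored strand and left out read pairs that touched more than 1 gene. Other genes shared 29.3% of the exon bases of SNHG6 (MCMDC2, opposite strand), 28.2% of SNHG7 (mostly DIPK1B, opposite strand), 30.6% of SNHG16 and 5.92% of SNHG3 (RCC1). The counts of these members are uncertain to that degree.

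Of the 24 snoRNA rows inside the members, 20 lay wholly within counted host exons and held 0 counts in every library. A read pair on such a row also touches the host exon and was left out. No snoRNA row inside GAS5 was analysed here. SNORD99 in SNHG12, SNORA73B in SNHG3 and SNORD1B in SNHG16 share no base with a counted exon of the host, and they held counts. SNORD30 in SNHG1, of whose 70 bases 34 lie in host exons, held a few counts in nuclear RNA. The sequences of the first 3 are shown because they are the snoRNAs whose own counts can be set beside those of the host. Capitals mark the box D motif CTGA nearest the 3′ end and the box C motif TGATGA where it is present, or the ACA near the 3′ end of the H/ACA snoRNA SNORA73B. TGATGA followed by CTGA was found in SNORD1B and in 72.6% of the 307 SNORD rows searched on their own strand, and SNORD99 holds CTGA without TGATGA.
SNORD99, chr1:28578749-28578822, minus strand, hg38: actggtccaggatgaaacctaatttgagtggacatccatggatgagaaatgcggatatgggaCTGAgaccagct
SNORA73B, chr1:28508559-28508762, plus strand, hg38: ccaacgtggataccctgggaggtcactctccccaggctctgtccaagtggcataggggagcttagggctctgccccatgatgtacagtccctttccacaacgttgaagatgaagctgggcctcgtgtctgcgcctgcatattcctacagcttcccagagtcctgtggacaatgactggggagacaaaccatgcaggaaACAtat
SNORD1B, chr17:76561109-76561192, plus strand, hg38: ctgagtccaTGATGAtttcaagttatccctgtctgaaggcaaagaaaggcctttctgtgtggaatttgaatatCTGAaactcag

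RefSeq start windows (GRCh38.p14, from 250 bases before to 50 after a gene's start) matched 8 members, and SNHG6 and SNHG15 were not matched. The 60 bases around the start (40 before, 20 after) are shown for the 3 members that rose with KCl (SNHG1, SNHG5 and SNHG12) and for SNHG7, which fell with imatinib. The pyrimidine run at the start is the feature these genes are known for, and capitals mark the longest run of C and T that reaches within 20 bases of the RefSeq start, or both runs where 2 are equally long.
SNHG1, chr11:62855866-62855925, minus strand: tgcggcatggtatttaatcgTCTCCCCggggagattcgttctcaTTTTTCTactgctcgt
SNHG5, chr6:85678714-85678773, minus strand: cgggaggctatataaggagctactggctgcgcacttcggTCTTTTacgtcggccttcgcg
SNHG12, chr1:28581854-28581913, minus strand: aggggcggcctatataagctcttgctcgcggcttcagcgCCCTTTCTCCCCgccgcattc
SNHG7, chr9:136728165-136728224, minus strand: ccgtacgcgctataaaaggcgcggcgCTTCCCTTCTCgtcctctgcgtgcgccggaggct

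The run was 12 bases long in SNHG12 and began 1 base before the RefSeq start, and 6.11% of the 35116 RefSeq windows hold a run at least as long. It was 11 bases in SNHG7 (8.36% of windows), where it ended 4 bases before the RefSeq start, outside the transcript. The run was 8 bases in SNHG16 (21.9% of windows) and 7 in SNHG1 (30.9%). In SNHG1 1 such run ends 14 bases before the start and an equal one covers bases 5 to 11 of the transcript. The run was 6 bases in SNHG3, SNHG5 and SNHG8 (44.6% of windows). It was 4 in GAS5 (83.0% of windows), where the RefSeq start lies 163 bases upstream of the row counted here. The SNHG12 start lies 1110 bases inside its row. TATATAA, searched on both strands of the 300-base windows, was found in SNHG5 and SNHG12 and in 2.57% of all windows. TATAAA was found in SNHG1 and SNHG7 (11.5% of windows) and CACGTG, the E-box bound by MYC, in SNHG7 (7.26%).

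In untreated cells the members fell into a higher and a lower set by mRNA level per kb of exon. The length used is that of the exons merged over isoforms, including the shared bases described above. The order between genes therefore also depends on the annotation. In CTRL mRNA the order was SNHG5 (75.5 ± 8.17 CPM per kb, SD, n = 3), GAS5 (72.5 ± 10.8), SNHG8 (64.8 ± 3.62), SNHG1 (61.9 ± 5.95), SNHG3 (49.3 ± 6.16), SNHG6 (45.3 ± 3.07), SNHG16 (19.6 ± 1.27), SNHG15 (13.5 ± 2.97), SNHG12 (10.3 ± 4.19) and SNHG7 (5.75 ± 1.74 CPM per kb). Neighbours overlapped in their 3 libraries except at the steps from SNHG6 to SNHG16 and from SNHG16 to SNHG15. In nuclear CTRL, SNHG8 (133 ± 14.96 CPM per kb) and SNHG3 (104 ± 18.04) led with overlapping libraries, followed by GAS5 (93.2 ± 5.85), SNHG5 (76.4 ± 5.93) and SNHG1 (70.2 ± 4.90). SNHG12, SNHG6, SNHG16 and SNHG15 lay between 26.8 and 29.4 CPM per kb, each overlapping the next, and SNHG7 was lowest (11.4 ± 1.19). SNHG7 ranked 9 or 10 in all 14 groups, and SNHG5 never ranked below 4. Since the tables were scaled separately, levels were not compared between fractions. The summed level of the 10 genes in mRNA was 1239 ± 81.9 CPM in CTRL and ran from 993 ± 40.6 CPM in JTE 1h to 1576 ± 153 CPM in KCl 3h, and in nuclear RNA it was 1798 ± 90.9 CPM in CTRL and 1191 ± 28.2 CPM in IM 18h.

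**Figure D1:**
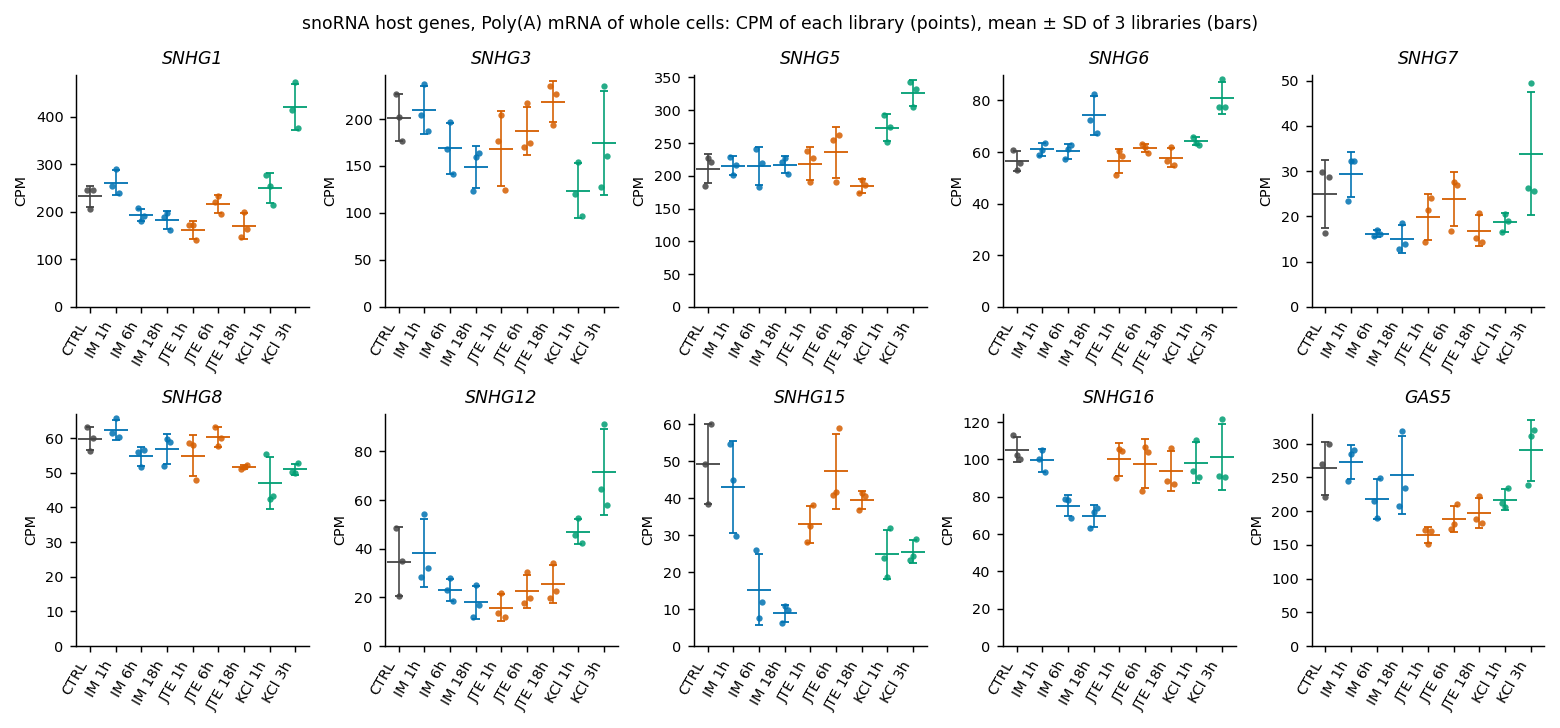
CPM of each member in poly(A) mRNA (y axis, linear from 0) by group (x axis), with 1 point per library and bars for the mean ± SD of 3 libraries. SNHG1, SNHG5 and SNHG12 stand highest in KCl 3h, as do GAS5, SNHG6 and SNHG7, which were not called there. SNHG15 falls from 49.3 CPM in CTRL to 8.94 CPM in IM 18h.

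The first comparison asked how the host genes responded to inhibition of BCR-ABL1 over time. SNHG15, the host of SNORA9, showed the largest change of any member against CTRL and had the only call at 6 h. Its mRNA was 3.21-fold lower at 6 h and 5.50-fold lower at 18 h, and its nuclear RNA 6.06-fold lower at 18 h. Its mRNA stood at 49.3, 38.4 and 60.1 CPM in CTRL and 54.6, 44.9 and 29.9 CPM at IM 1h. It stood at 26.1, 7.70 and 11.99 CPM at IM 6h and 6.35, 10.7 and 9.74 CPM at IM 18h. The IM 6h and IM 18h libraries all lay below the CTRL libraries, while IM 1h overlapped CTRL. SNHG15 fell at 6 h (log2 change -1.68, SE 0.32, edgeR adjusted p = 0.000827) and at 18 h (log2 change -2.46, SE 0.33, edgeR adjusted p = 4.01e-06), and both calls held under all 17 alternative settings tried. The value at 6 h moved from -1.39 to -2.35 across them, the lowest without IM 6h replicate 1, whose 26.1 CPM was the highest of its group.

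In nuclear RNA SNHG15 stood at 94.2, 104 and 94.9 CPM in CTRL, 71.5, 73.7 and 63.8 CPM at IM 1h and 11.2, 19.2 and 18.3 CPM at IM 18h, and these groups did not overlap each other. It fell at 18 h (log2 change -2.598, SE 0.16, edgeR adjusted p = 5.91e-10), a call kept under all 16 alternatives. At 1 h the nuclear difference was -0.49 (SE 0.15) and did not pass the test (edgeR adjusted p = 0.879). The responses at 18 h in the 2 fractions differed by -0.085 on the log2 scale (SE 0.30, edgeR interaction adjusted p = 1).

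SNHG12, which hosts SNORD99 and several H/ACA snoRNAs, and SNHG7, the host of SNORA17A and SNORA17B, were the other members that fell in both fractions at 18 h. SNHG12 stood in mRNA at 48.7, 20.4 and 34.95 CPM in CTRL and 11.9, 25.2 and 16.8 CPM at IM 18h, and the groups overlapped (log2 change -0.95, SE 0.33, edgeR adjusted p = 0.0246). Nuclear SNHG12 stood at 94.97, 97.7 and 105 CPM in CTRL and 45.4, 59.98 and 55.8 CPM at IM 18h with no overlap (log2 change -0.88, SE 0.17, edgeR adjusted p = 0.000267). The mRNA call was lost on leaving out replicate 1 of CTRL or replicate 1 or 3 of IM 18h (edgeR adjusted p 0.0701 to 0.172, log2 change -0.91 to -0.63), and the nuclear call held under all 16 alternatives. SNHG7 stood in mRNA at 29.9, 16.3 and 28.8 CPM in CTRL and 12.7, 18.5 and 13.9 CPM at IM 18h, again overlapping (log2 change -0.73, SE 0.26, edgeR adjusted p = 0.0274). In nuclear RNA its libraries separated, with 46.4, 46.3 and 55.3 CPM in CTRL and 28.2, 31.6 and 29.2 CPM at IM 18h (log2 change -0.73, SE 0.13, edgeR adjusted p = 0.000136). The mRNA call of SNHG7 was lost on leaving out replicate 1 or 3 of CTRL or of IM 18h (edgeR adjusted p 0.0803 to 0.119, log2 change -0.68 to -0.59). Without nuclear CTRL replicate 3 its nuclear log2 change was -0.59, just inside the threshold. At IM 6h SNHG7 was not called (log2 change -0.62, SE 0.26, edgeR adjusted p = 0.111), but it was with no filter on low counts and without CTRL replicate 2 (-0.88).

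SNHG3, the host of SNORA73A and SNORA73B, stood in nuclear RNA at 372, 397 and 510.1 CPM in CTRL and 146, 229.6 and 246 CPM at IM 18h. All IM 18h libraries lay below all CTRL libraries, and SNHG3 fell (log2 change -1.04, SE 0.19, edgeR adjusted p = 0.000378). With the counts of its snoRNA rows added, all from SNORA73B, the log2 change was -0.45 (edgeR adjusted p = 0.00369) and the fold threshold was not passed. In mRNA SNHG3 stood at 227, 202 and 176 CPM in CTRL and 123, 159 and 164 CPM at IM 18h, and did not pass the test (log2 change -0.44, SE 0.20, edgeR adjusted p = 0.0855). SNHG16, the host of the SNORD1 snoRNAs, lay just under the fold threshold in both fractions at 18 h. Its mRNA stood at 113, 102 and 100.5 CPM in CTRL and 63.3, 71.8 and 74.1 CPM at IM 18h without overlap (log2 change -0.59, SE 0.12, edgeR adjusted p = 0.000445), and its nuclear log2 change was -0.59 (SE 0.10, edgeR adjusted p = 9.83e-05). It passed in mRNA under 10 of 17 alternatives, among them DESeq2 and leaving out replicate 2 or 3 of CTRL or of IM 18h (-0.66 to -0.64). In nuclear RNA it passed under 3 of 16, including without CTRL replicate 1 or IM 18h replicate 2 (-0.71 to -0.61). In both fractions these include the setting without a fold threshold, which SNHG16 was bound to pass.

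By edgeR, no member was called at IM 1h in mRNA, where 0.0166% of all genes tested were called in either direction, or in nuclear RNA, where 0.0456% were. At an unadjusted p below 0.05 there were 0 members in mRNA, beside 206 of 18095 genes, and 1 (SNHG15) in nuclear RNA, beside 844 of 21929. DESeq2 called no member in either. At IM 6h 1 of 10 members was called, and it was lower, as were 4.12% of all genes in mRNA. At IM 18h 3 of 10 were called lower in mRNA, against 13.2% of all genes, and 4 of 10 in nuclear RNA, against 15.4%. The median log2 change of the 10 members at 18 h was -0.39 in mRNA and -0.56 in nuclear RNA, beside 0.038 and 0 over all genes tested. SNHG6, the host of SNORD87, stood at 60.6, 53.1 and 55.6 CPM in CTRL mRNA and, higher in every library, at 72.5, 82.6 and 67.5 CPM at IM 18h, below the fold threshold (log2 change 0.40, SE 0.091, edgeR adjusted p = 0.00113). GAS5 at 18 h had a log2 change of -0.057 in mRNA (edgeR adjusted p = 0.780) and of -0.52 in nuclear RNA (edgeR adjusted p = 0.000256), under the threshold. Its nuclear libraries, at 327, 326 and 363 CPM in CTRL and 249.7, 234 and 227 CPM at IM 18h, did not overlap. The response of GAS5 differed between the fractions by -0.40 (SE 0.19), and the interaction did not pass the test (edgeR adjusted p = 1).

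The time points of imatinib were also compared directly. From 1 to 6 h 2 of 10 members were called, where 8.2% of all genes were. SNHG15 fell (log2 change -1.49, SE 0.31, edgeR adjusted p = 0.00272), as did SNHG7 (log2 change -0.85, SE 0.26, edgeR adjusted p = 0.0320). SNHG7 stood at 23.4, 32.1 and 32.2 CPM at IM 1h and 15.6, 16.97 and 16.1 CPM at IM 6h, with no overlap. The SNHG7 call was lost on leaving out replicate 2 or 3 of IM 1h or any library of IM 6h (edgeR adjusted p 0.0633 to 0.112, log2 change -0.91 to -0.78). That of SNHG15 was lost in the fit of the 2 groups alone (edgeR adjusted p = 0.0951). From 6 to 18 h edgeR called no member (4.41% of all genes), and DESeq2 called none. At an unadjusted p below 0.05 there were 2 members, beside 4380 of 18095 genes. SNHG15 had a log2 change of -0.78 there (SE 0.33, edgeR adjusted p = 0.140).

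**Figure D2:**
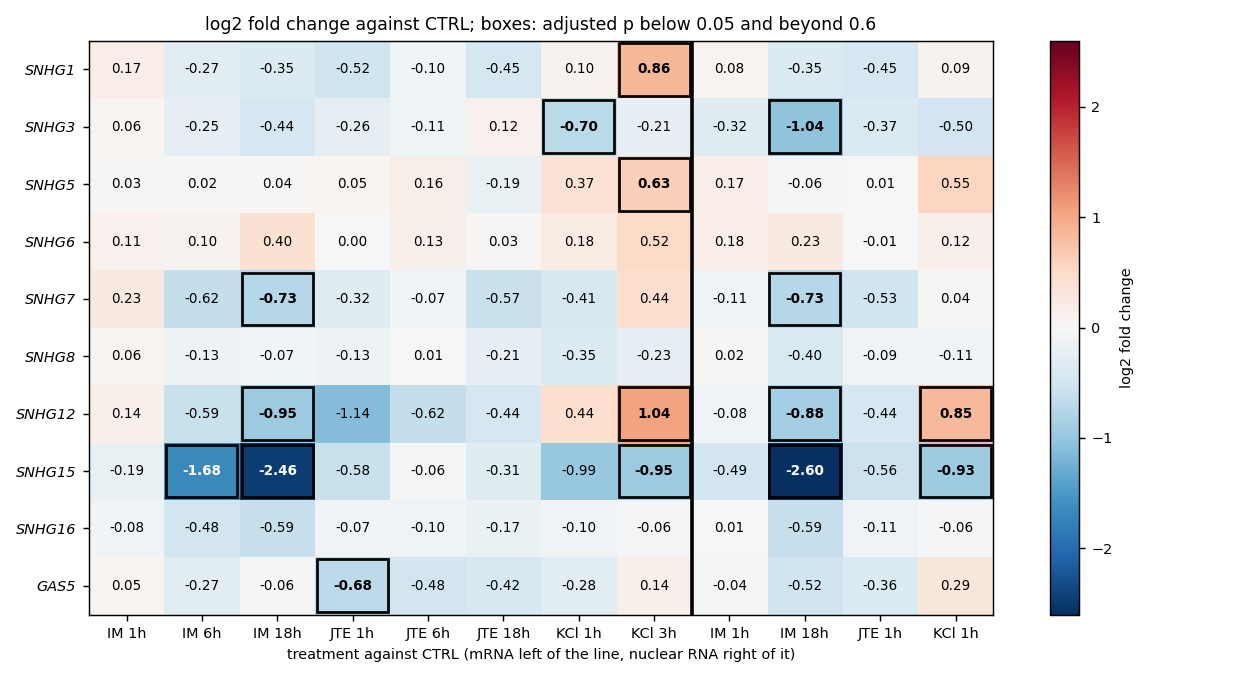
Log2 fold change against CTRL of the 10 members (rows) in 12 comparisons (columns), with mRNA left of the vertical line and nuclear RNA right of it; color gives the value and boxes mark called values. The 16 boxed values fall on 7 members, SNHG15 is boxed in 5 columns, and SNHG6, SNHG8 and SNHG16 in none.

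The KCl comparison asked how the same genes responded to osmotic stress. SNHG1, SNHG5 and SNHG12 rose, SNHG15 fell, and SNHG3 fell at 1 h. At 3 h in mRNA SNHG12 was 2.06-fold, SNHG1 1.81-fold and SNHG5 1.55-fold higher than in CTRL. SNHG1, which carries a cluster of box C/D snoRNAs that includes SNORD22, SNORD25 and SNORD30, stood in mRNA at 246, 207 and 246 CPM in CTRL, 277, 255 and 215 CPM at KCl 1h and 415, 472 and 376 CPM at KCl 3h. KCl 1h overlapped CTRL, and all KCl 3h libraries lay above both. SNHG1 rose at 3 h (log2 change 0.86, SE 0.13, edgeR adjusted p = 2.89e-05), a call kept under all 17 alternatives, and it was higher at 3 h than at 1 h (log2 change 0.76, SE 0.13, edgeR adjusted p = 0.000488). It was the only member of 10 called between the KCl time points, where 3.29% of all genes were called. SNHG7 had a larger but more variable difference there (log2 change 0.85, SE 0.26, edgeR adjusted p = 0.0578), with 16.5, 20.6 and 19.05 CPM at KCl 1h and 26.3, 49.5 and 25.7 CPM at KCl 3h. It was called by DESeq2 and without replicate 1 or 3 of KCl 3h (1.00 to 1.02).

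SNHG5, the host of SNORD50B, stood at 185, 228 and 220.4 CPM in CTRL, 293, 252 and 275 CPM at KCl 1h and 342, 305 and 332 CPM at KCl 3h. Every KCl library lay above every CTRL library. The rise at 3 h was called (log2 change 0.63, SE 0.12, edgeR adjusted p = 0.000439) and lay just past the fold threshold. It was lost with total counts as library sizes (0.59) and without replicate 1 of CTRL or of KCl 3h (edgeR adjusted p 0.00312 to 0.00605, log2 change 0.54 to 0.58). At 1 h its log2 change was 0.37 in mRNA (edgeR adjusted p = 0.0627) and 0.55 in nuclear RNA (edgeR adjusted p = 0.000347). Its nuclear libraries stood at 227, 218 and 195 CPM in CTRL and 341, 296 and 301 CPM at KCl 1h, without overlap.

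SNHG12 was the member that rose in both fractions. In nuclear RNA it stood at 94.97, 97.7 and 105 CPM in CTRL and 153, 177 and 205 CPM at KCl 1h, with all KCl libraries above CTRL. This rise (log2 change 0.85, SE 0.16, edgeR adjusted p = 0.000524) was called under all 16 alternatives. In mRNA it stood at 45.8, 52.5 and 42.6 CPM at KCl 1h and was not called (log2 change 0.44, SE 0.32, edgeR adjusted p = 0.686). At KCl 3h it stood at 64.8, 91.4 and 58.1 CPM and was called (log2 change 1.04, SE 0.33, edgeR adjusted p = 0.0303). The KCl 3h libraries lay above the CTRL libraries, among which SNHG12 ranged from 20.4 to 48.7 CPM, the widest relative spread of any member in CTRL. The call at 3 h was lost in the fit of the 2 groups alone (edgeR adjusted p = 0.0593) and on leaving out replicate 2 or 3 of CTRL or 1 or 2 of KCl 3h (edgeR adjusted p 0.0543 to 0.171, log2 change 0.77 to 1.10).

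SNHG15 fell under KCl as well, and its log2 change was below 0 in all 12 comparisons with CTRL, which share the CTRL libraries of each fraction. In nuclear RNA it stood at 54.2, 57.8 and 42.2 CPM at KCl 1h, below all CTRL libraries given above (log2 change -0.93, SE 0.15, edgeR adjusted p = 6.29e-05), a call kept under all 16 alternatives. In mRNA it stood at 23.7, 18.7 and 32.003 CPM at KCl 1h and 23.4, 24.3 and 29.002 CPM at KCl 3h, both below CTRL without overlap. It was called at 3 h (log2 change -0.95, SE 0.31, edgeR adjusted p = 0.0378) and not at 1 h (log2 change -0.99, SE 0.31, edgeR adjusted p = 0.0573). The 3 h call was lost with counts thinned to 1 depth (edgeR adjusted p = 0.0527) and on leaving out replicate 1 or 3 of CTRL or any KCl 3h library (edgeR adjusted p 0.0565 to 0.136, log2 change -1.05 to -0.80). The 1 h value was called by DESeq2 (DESeq2 adjusted p = 0.0269), with no filter on low counts, and on leaving out replicate 2 of CTRL or 3 of KCl 1h (edgeR adjusted p 0.0446 to 0.0491, log2 change -1.22 to -1.15).

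SNHG3 fell in mRNA at KCl 1h, from 227, 202 and 176 CPM in CTRL to 120.4, 154 and 96.3 CPM, with no overlap (log2 change -0.70, SE 0.20, edgeR adjusted p = 0.0384). The call was lost in the fit of the 2 groups alone (edgeR adjusted p = 0.0801) and on leaving out replicate 1 or 2 of CTRL or 1 or 3 of KCl 1h (edgeR adjusted p 0.108 to 0.242, log2 change -0.70 to -0.55). In nuclear RNA at KCl 1h its libraries lay below CTRL, at 239.6, 313 and 354 CPM, and it was not called (log2 change -0.50, SE 0.19, edgeR adjusted p = 0.0681) except without nuclear CTRL replicate 1 or KCl 1h replicate 3 (-0.62 and -0.61). At KCl 3h its mRNA libraries spread from 128 to 236 CPM around CTRL (log2 change -0.21, SE 0.20, edgeR adjusted p = 0.579). SNHG6 stood at 77.5, 88.2 and 77.4 CPM at KCl 3h, above all CTRL libraries, below the fold threshold (log2 change 0.52, SE 0.091, edgeR adjusted p = 0.000196).

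Among the 10 members, 1 was called lower at KCl 1h in mRNA, where 2.94% of all genes were called lower. At KCl 3h 3 were called higher, against 4.55% of all genes, and 1 lower, against 7.33%. In nuclear RNA at KCl 1h 1 was called higher and 1 lower, against 15.3% and 8.5% of all genes. The members' median log2 change was -0.19 at KCl 1h and 0.29 at KCl 3h in mRNA and 0.063 in nuclear RNA, beside medians over all genes of 0.0064, 0.024 and 0.02.

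**Figure D3:**
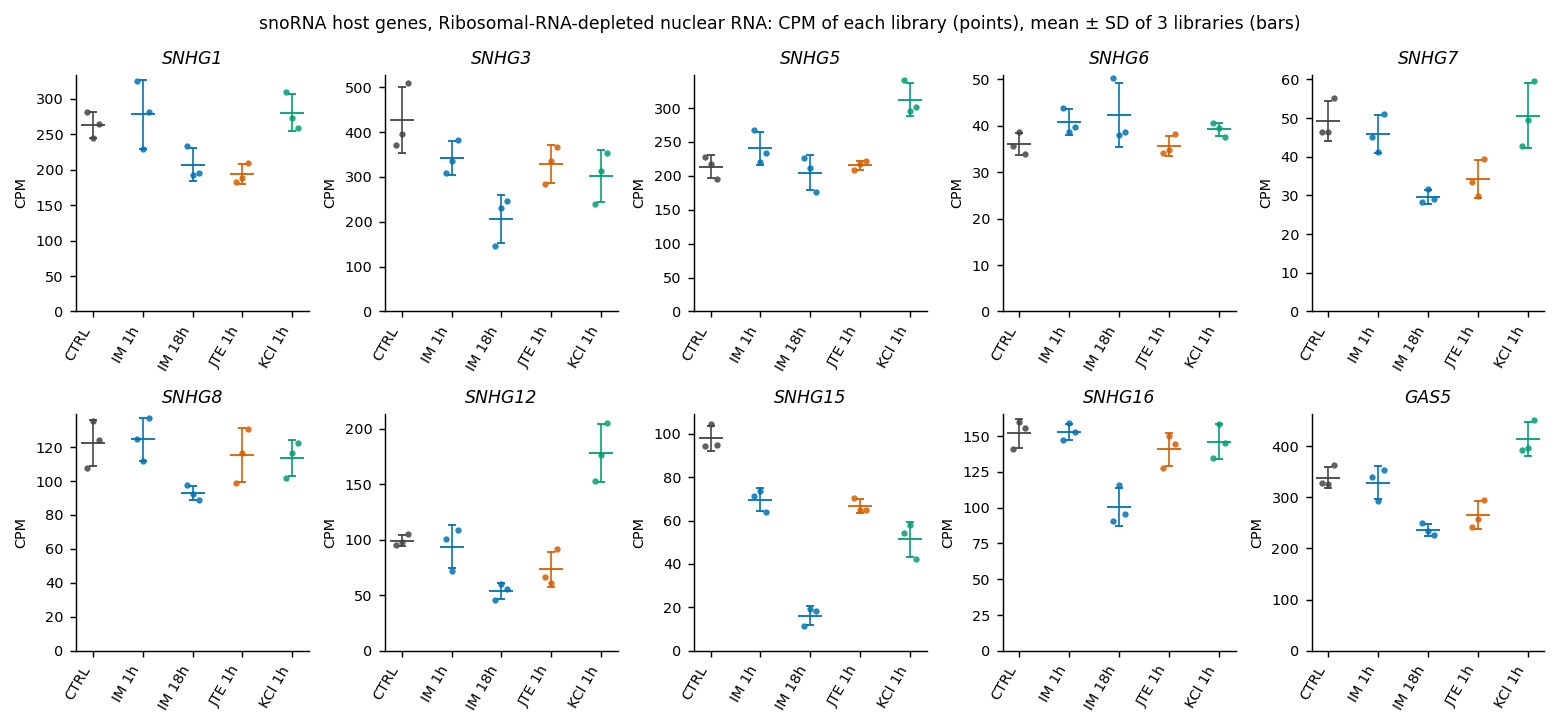
CPM of each member in nuclear RNA (y axis, linear from 0) by group (x axis), with 1 point per library and bars for the mean ± SD of 3 libraries. SNHG12 stands highest in KCl 1h and SNHG15 lowest in IM 18h, each without overlap with CTRL. By group mean GAS5, SNHG1, SNHG5 and SNHG7 are also highest in KCl 1h. GAS5, SNHG3, SNHG5, SNHG7, SNHG8, SNHG12 and SNHG16 are also lowest in IM 18h.

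Of the 16 calls against CTRL, 8 were with imatinib, 7 with KCl and 1 with JTE-607, that of GAS5 at 1 h. GAS5, known to accumulate in growth arrest, stood in mRNA at 269, 222 and 299 CPM in CTRL and 171, 151 and 170.3 CPM at JTE 1h. It stood at 174, 181 and 209.8 CPM at JTE 6h and 188, 222 and 182 CPM at JTE 18h. The JTE 1h and 6h libraries all lay below CTRL, and those of JTE 18h overlapped it by a single library. GAS5 fell at 1 h (log2 change -0.68, SE 0.15, edgeR adjusted p = 0.0191), while at 6 h (-0.48, edgeR adjusted p = 0.0209) and 18 h (-0.42, edgeR adjusted p = 0.0728) it was not called. The 1 h call was lost in the fit of the 2 groups alone (edgeR adjusted p = 0.175) and on leaving out replicate 1 or 3 of CTRL or 2 or 3 of JTE 1h (edgeR adjusted p 0.0831 to 0.117, log2 change -0.71 to -0.58). The 6 h value was called without CTRL replicate 2 (-0.62). In nuclear RNA at JTE 1h GAS5 stood at 241, 258 and 294 CPM, below all nuclear CTRL libraries and under the fold threshold (log2 change -0.36, SE 0.099, edgeR adjusted p = 0.0248).

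SNHG1 at JTE 1h stood at 173, 173 and 139.7 CPM in mRNA, below all CTRL libraries, and did not pass the fold threshold (log2 change -0.52, SE 0.13, edgeR adjusted p = 0.0423). Nuclear SNHG1 stood at 282, 245 and 264 CPM in CTRL and 183, 188 and 209 CPM at JTE 1h, again without overlap and within the threshold (log2 change -0.45, SE 0.12, edgeR adjusted p = 0.0185). SNHG12 had the largest JTE 1h difference in mRNA, with 13.5, 22.02 and 11.8 CPM, but did not pass the test (log2 change -1.14, SE 0.33, edgeR adjusted p = 0.141). Its libraries overlapped CTRL by a single library, and with no filter on low counts it was called. The numbering of CTRL replicates 1 and 2 in mRNA is in doubt. It was also called with a replicate block, whether those numbers were kept (-1.24, edgeR adjusted p = 0.0233) or exchanged (-1.12, edgeR adjusted p = 9.3e-05). At JTE 6h SNHG12 stood at 17.7, 30.4 and 19.6 CPM, and it was called with the exchanged block (edgeR adjusted p = 0.00439) and with no filter but not otherwise (log2 change -0.62, SE 0.33, edgeR adjusted p = 0.221). In nuclear RNA 4 members (SNHG1, SNHG7, SNHG15 and GAS5) had an adjusted p below 0.05 at JTE 1h with a log2 change inside the threshold. SNHG7 had -0.53 (edgeR adjusted p = 0.0124) and SNHG15 -0.56 (edgeR adjusted p = 0.0200). Without nuclear JTE 1h replicate 3, SNHG7 (-0.64) and SNHG12 (-0.63) were called. Of 10 members, 1 was called lower at JTE 1h in mRNA, against 0.464% of all genes. By edgeR none was called at JTE 6h (13.2% of all genes in either direction), JTE 18h (5.39%) or nuclear JTE 1h (8.52%). At an unadjusted p below 0.05 there were 1, 4 and 5 members in these comparisons, beside 5336 and 4101 of 18095 genes and 4776 of 21929. DESeq2 called no member in any of them. The members' median was -0.29 at JTE 1h in mRNA and -0.36 in nuclear RNA, beside 0.006 and -0.0065 over all genes. Between JTE time points edgeR called no member from 1 to 6 h (9.23% of all genes) or from 6 to 18 h (13.4%). There 1 and 3 members had an unadjusted p below 0.05, beside 4444 and 6214 of 18095 genes, and DESeq2 called no member.

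Treatments were then set against each other at matched times. SNHG15 stood at 40.97, 41.8 and 59.1 CPM at JTE 6h and 36.8, 41.4 and 40.6 CPM at JTE 18h, above all imatinib libraries of the same time. It was lower with imatinib than with JTE-607 at 6 h (log2 change -1.62, SE 0.32, edgeR adjusted p = 0.000373) and at 18 h (log2 change -2.15, SE 0.33, edgeR adjusted p = 2e-05). It was the only member of 10 called at either time, where 23.8% and 30.3% of all genes were called. Both calls held under all 16 alternatives. At 18 h SNHG3 (log2 change -0.56, edgeR adjusted p = 0.0311) was also called on leaving out replicate 2 or 3 of IM 18h or 2 of JTE 18h (-0.65 to -0.62), and at 6 h SNHG7 without replicate 1 of JTE 6h (-0.75).

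At 1 h KCl was set against JTE-607 and imatinib. In mRNA 2 of 10 members were higher with KCl than with JTE-607, where 4.29% of all genes were called. They were SNHG12 (log2 change 1.57, SE 0.33, edgeR adjusted p = 0.00470), called under all 16 alternatives, and SNHG1 (log2 change 0.62, SE 0.13, edgeR adjusted p = 0.00275). The SNHG1 call was lost with thinned counts, with upper quartile scaling, in the fit of the 2 groups alone, and on leaving out replicate 3 of JTE 1h or 1 of KCl 1h (0.52 to 0.53). In nuclear RNA 2 of 10 were higher with KCl than with JTE-607 (15.9% of all genes called), SNHG12 (log2 change 1.29, SE 0.17, edgeR adjusted p = 1.4e-05) and GAS5 (log2 change 0.65, SE 0.099, edgeR adjusted p = 5.79e-05). SNHG7 was called without replicate 3 of JTE 1h or 1 of KCl 1h (0.67 to 0.68). GAS5 stood at 393, 397 and 452 CPM with KCl, and it was no longer called without replicate 1 of JTE 1h or 3 of KCl 1h (0.56 to 0.58).

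Against imatinib at 1 h, KCl gave 1 call of 10 in mRNA (6.37% of all genes) and 1 in nuclear RNA (22.1%). SNHG3 stood at 204, 238 and 187 CPM in mRNA with imatinib, above all KCl libraries (log2 change -0.76, SE 0.20, edgeR adjusted p = 0.0200). The call was lost without replicate 1 or 2 of IM 1h or 1 or 3 of KCl 1h (edgeR adjusted p 0.0596 to 0.166, log2 change -0.78 to -0.60). SNHG12 stood in nuclear RNA at 100.4, 71.6 and 109 CPM with imatinib, below all KCl libraries (log2 change 0.93, SE 0.16, edgeR adjusted p = 0.000228), and was called under all 16 alternatives. These comparisons reuse the treated libraries of the comparisons with CTRL.

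Whether the nuclear and the whole-cell response differed was tested as an interaction over 12 libraries for each shared treatment. No member was called by edgeR or DESeq2. The differences (nuclear minus mRNA, log2 scale) ran from -0.37 to 0.14 for IM 1h and from -0.55 (SNHG3) to 0.12 for IM 18h. They ran from -0.18 to 0.72 (SNHG12) for JTE 1h and from -0.17 to 0.46 (GAS5) for KCl 1h. By edgeR, 1 member in each of IM 18h, JTE 1h and KCl 1h and none in IM 1h had an unadjusted p below 0.05. So did 395 of 19420 genes in IM 1h, 974 of 19967 in IM 18h, 1175 of 19831 in JTE 1h and 2035 of 21095 in KCl 1h. Of all genes, 0%, 0.0901%, 0.0605% and 0.668% were called in the 4 interactions. The SE of SNHG12 at IM 1h was 0.42, at which a difference as small as the fold threshold was not detectable.

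In poly(A) RNA 2 snoRNA rows passed the filter, SNORD99 and SNORA73B, at low counts. Each was tested in the same fit over all genes, and its difference from the host was not tested. SNORD99, inside SNHG12, held 47, 18 and 39 counts in the CTRL mRNA libraries and 5, 1 and 8 at JTE 1h. It held 105, 454 and 251 counts at KCl 1h and 79, 144 and 87 at KCl 3h. In CPM the KCl groups lay above CTRL and JTE 1h below it, without overlap. It rose at KCl 1h (log2 change 1.73, SE 0.41, edgeR adjusted p = 0.00796) and KCl 3h (log2 change 1.39, SE 0.41, edgeR adjusted p = 0.0204). It fell at JTE 1h (log2 change -2.92, SE 0.57, edgeR adjusted p = 0.00885), JTE 6h (-2.06, edgeR adjusted p = 0.00602) and IM 18h (-1.90, edgeR adjusted p = 0.00408). Its host had the same sign in each of these 5 comparisons and was called in 2 of them. The KCl 1h call was lost without CTRL replicate 2 (1.40), the KCl 3h call without CTRL replicate 2 or KCl 3h replicate 2 (1.06 to 1.10). At JTE 1h SNORD99 was no longer called on leaving out replicate 1 of CTRL or 2 of JTE 1h (edgeR adjusted p 0.0610 to 0.0641, log2 change -2.63 to -2.44) and in the fit of the 2 groups alone. In nuclear RNA SNORD99 held 207, 235 and 155 counts in CTRL and 224, 361 and 255 at KCl 1h, under the fold threshold (log2 change 0.57, SE 0.18, edgeR adjusted p = 0.0219).

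SNORA73B, inside SNHG3, held 77, 53 and 69 counts in CTRL mRNA and 8, 13 and 13 at JTE 1h. It held 14, 30 and 20 counts at JTE 6h and 45, 38 and 24 at JTE 18h. All JTE libraries lay below CTRL in CPM, and SNORA73B fell at 1 h (log2 change -2.59, SE 0.40, edgeR adjusted p = 0.000782) and at 6 h (log2 change -1.62, SE 0.37, edgeR adjusted p = 0.00274). The 1 h call was lost in the fit of the 2 groups alone (edgeR adjusted p = 0.0627). SNHG3 itself had a log2 change of -0.26 at 1 h and -0.11 at 6 h and was not called. In nuclear RNA SNORA73B held 5411, 6214 and 5027 counts in CTRL and 5314, 5609 and 7370 at JTE 1h. Its libraries overlapped, and its nuclear log2 change was 0.026 (SE 0.12). The JTE 1h response of SNORA73B differed between nuclear RNA and mRNA by 2.64 (SE 0.27, edgeR interaction adjusted p = 0.00113). At IM 18h, where nuclear SNHG3 fell, nuclear SNORA73B stood at 258 ± 22.1 CPM in CTRL and 294 ± 44.6 CPM with imatinib (log2 change 0.19, SE 0.12, edgeR adjusted p = 0.226).

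SNORD1B, inside SNHG16, held at most 8 counts in any mRNA library. In nuclear RNA it held 17, 19 and 18 counts in CTRL and 5, 7 and 8 at IM 18h, and fell (log2 change -1.36, SE 0.35, edgeR adjusted p = 0.00367). SNORD30 held at most 9 counts in any nuclear library and none in mRNA. Neither library type was made for small RNA, so these rows measure fragments that entered the libraries and not the level of the mature snoRNA.

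**Figure D4:**
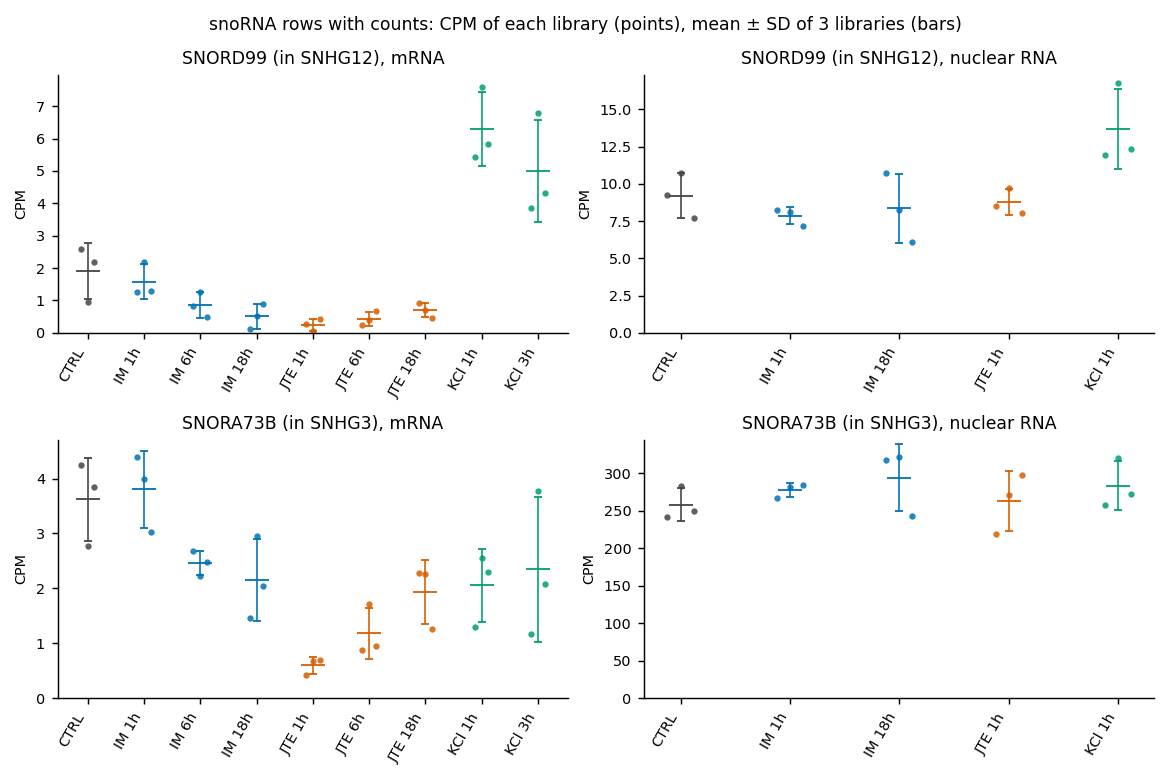
CPM of SNORD99 (top) and SNORA73B (bottom) in mRNA (left) and nuclear RNA (right) by group, with 1 point per library and bars for the mean ± SD of 3 libraries; y axes are linear from 0 and differ between panels. In mRNA SNORD99 is above CTRL in both KCl groups and SNORA73B is below CTRL in JTE 1h and JTE 6h, while nuclear SNORA73B stands at 258 CPM in CTRL and 263 CPM in JTE 1h.

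Genes with roles around the host genes were followed as lists. Of 20 genes for proteins that form or assemble snoRNA particles, 6 fell at IM 6h in mRNA (median log2 change -0.41), where 4.12% of all genes fell. At IM 18h 14 fell in mRNA (-0.80) and 15 in nuclear RNA (-0.92), beside 13.2% and 15.4% of all genes, and none rose in any of the 3 comparisons. NOLC1, a nucleolar chaperone of snoRNA particles, averaged 504 ± 48.7 in CTRL and 171 ± 32.9 CPM at IM 18h in mRNA (log2 change -1.56, SE 0.17, edgeR adjusted p = 2.3e-07). NOP56, a core box C/D protein, averaged 331 ± 15.2 in CTRL and 119.7 ± 11.7 CPM at IM 18h in nuclear RNA (log2 change -1.47, SE 0.11, edgeR adjusted p = 6.55e-09). NUFIP1 and ZNHIT6, assembly factors of box C/D particles, fell at IM 6h (log2 change -1.16, SE 0.18, edgeR adjusted p = 0.000115 for NUFIP1). With KCl edgeR called none of the 20 in either fraction, and 1, 2 and 0 had an unadjusted p below 0.05 at KCl 1h and 3h in mRNA and KCl 1h in nuclear RNA. Of all genes, 2711 and 4816 of 18095 and 7628 of 21929 had such a p in these comparisons. The same totals apply to the next 2 lists. With JTE-607 the single call was RUVBL2, a helicase of the assembly complex, at 18 h (log2 change -0.71, SE 0.10, edgeR adjusted p = 8.24e-05).

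Of 15 NMD factors, edgeR called none with KCl, where 1, 3 and 1 had an unadjusted p below 0.05 in the same order and medians ran from 0.0092 to 0.11. At IM 18h 2 of 15 fell in mRNA, a share near the 13.2% of all genes, and 4 of 15 in nuclear RNA, where 15.4% of all genes fell. Among them was EIF4A3, a core protein of the exon junction complex, which averaged 144 ± 10.2 in CTRL and 78.8 ± 10.7 CPM at IM 18h in mRNA (log2 change -0.87, SE 0.11, edgeR adjusted p = 1.67e-06). At JTE 6h SMG5, an NMD effector, fell (log2 change -0.88, SE 0.10, edgeR adjusted p = 1.3e-06) and RBM8A, also of the exon junction complex, rose (log2 change 0.65, SE 0.14, edgeR adjusted p = 0.00158). Of 9 genes that control the translation of mRNAs with a 5′ pyrimidine run, edgeR called none with KCl, where 1, 3 and 0 had an unadjusted p below 0.05. At IM 18h 1 of the 9 rose and 2 fell in mRNA, beside 17.2% and 13.2% of all genes. EIF4EBP2, a repressor of the cap-binding protein EIF4E, rose (log2 change 0.77, SE 0.088, edgeR adjusted p = 3.72e-07), and EIF4E itself (log2 change -0.72, SE 0.12, edgeR adjusted p = 3.03e-05) and EIF4EBP1 fell. With JTE-607 RPTOR fell at 6 h (log2 change -0.99, SE 0.13, edgeR adjusted p = 8.6e-06), where 6.47% of all genes fell. EIF4EBP1 fell at JTE 18h as well (log2 change -0.87, SE 0.22, edgeR adjusted p = 0.0125), where 2.09% of all genes fell.

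Of 20 other non-coding snoRNA hosts, 16 passed the filter in mRNA and 18 in nuclear RNA. At KCl 3h 2 rose and 2 fell, beside 4.55% and 7.33% of all genes. ZFAS1, the host of the SNORD12 family, averaged 25.5 ± 4.81 in CTRL and 63.2 ± 11.5 CPM at KCl 3h (log2 change 1.31, SE 0.17, edgeR adjusted p = 5.51e-06), whereas SNHG4 averaged 42.04 ± 9.83 in CTRL and 14.6 ± 0.755 CPM (log2 change -1.53, SE 0.22, edgeR adjusted p = 1.99e-05). SNHG4 also fell at KCl 1h in both fractions, at IM 6h, and at IM 18h in mRNA (log2 change -1.39, SE 0.22, edgeR adjusted p = 2.12e-05) and nuclear RNA (log2 change -1.76, SE 0.16, edgeR adjusted p = 3.41e-08). SNHG20 fell at KCl 3h (log2 change -1.47, SE 0.17, edgeR adjusted p = 1.18e-06) and at KCl 1h in both fractions. SNHG19 fell at KCl 1h in mRNA. At KCl 1h 1 host rose and 3 fell in mRNA (2.51% and 2.94% of all genes). In nuclear RNA 1 rose and 2 fell there (15.3% and 8.5%). At IM 6h 2 fell (4.12%), and at JTE 6h 2 rose (6.73%). SNHG17 fell at IM 6h and 18 h in mRNA (log2 change -1.42, SE 0.19, edgeR adjusted p = 2.32e-06 at 18 h), and DANCR fell at IM 18h in nuclear RNA (log2 change -0.92, SE 0.11, edgeR adjusted p = 1.21e-06). At IM 18h 1 of these hosts rose and 3 fell in mRNA, and 2 rose and 5 fell in nuclear RNA. Of all genes, 17.2% rose and 13.2% fell there in mRNA, and 17.2% rose and 15.4% fell in nuclear RNA. Of 176 protein-coding hosts, 162 passed in mRNA and 164 in nuclear RNA, and their counts stand beside the same shares of all genes. At IM 18h 8 rose and 37 fell in mRNA (median log2 change -0.067), and 12 rose and 41 fell in nuclear RNA (-0.083). At KCl 3h 3 rose and 3 fell (0.14).

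The patterns of the members over the 9 mRNA group means were compared with those of 8720 genes that average at least 10 CPM, by Pearson's r of log2(CPM + 0.5), as a description without a test. The genes compared share the scaling and the libraries of each group, and 9 means give high values for many genes. Most like SNHG15 were UQCC4 (r = 0.99), TMED3 (r = 0.97) and UBE2G2 (r = 0.96). Most like SNHG16 were NOP16, a ribosome biogenesis factor (0.99), POLR3D, a subunit of RNA polymerase III (0.99), and HK2, hexokinase 2 (0.99). Among the genes most like SNHG1 were SNHG12 (0.92) and KLF6 (r = 0.92), and SNHG12 was most like TOB1 (r = 0.94), CDKN2AIP (r = 0.92) and SNHG1. The nearest genes of the others were NUBP2 (r = 0.90) for SNHG3, VPS72 (r = 0.97) for SNHG5, NIPBL (r = 0.95) for SNHG6, PIGT (r = 0.89) for SNHG7, RPL36A (r = 0.94) for SNHG8 and COG5 (r = 0.80) for GAS5.

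SNHG6, SNHG8 and SNHG16 were not called in any of the 12 comparisons with CTRL. Their log2 changes ran from -0.015 to 0.52 for SNHG6, -0.40 to 0.061 for SNHG8 and -0.59 to 0.01 for SNHG16. SNHG6 was highest in KCl 3h among the mRNA group means. Its lowest mean, in CTRL (56.4 ± 3.82 CPM), overlapped JTE 1h (56.6 ± 4.75 CPM). SNHG16 was highest in CTRL and lowest in IM 18h. SNHG8, the host of SNORA24, had the narrowest range of group means in mRNA, from 47.04 CPM in KCl 1h to 62.4 CPM in IM 1h. In nuclear RNA it stood at 108, 135 and 124 CPM in CTRL and 97.5, 92.2 and 88.99 CPM at IM 18h, without overlap (log2 change -0.40, SE 0.12, edgeR adjusted p = 0.00851).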

How the data were processed

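RNA of 42 K562 libraries, 3 for each of 9 mRNA and 5 nuclear groups, was analysed from 2 deposited tables of counts per gene. As the authors describe, reads were trimmed and deduplicated with fastp, aligned to hg38 (GRCh38.p14 in the submitters' processing notes) with STAR keeping unique alignments, and counted with featureCounts as read pairs on exons per gene; no strand option is named, so antisense reads cannot be told apart. The annotation release is not given in the sources used here. Symbols came from a GENCODE 44 table that held 57532 of 58243 gene IDs. No count column lacked a sample.

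The counts were tested with edgeR 4.0.16 (R 4.3.3; filterByExpr, TMM, robust quasi-likelihood fit of all libraries of a fraction, 18095 genes in mRNA and 21929 in nuclear RNA, with no replicate block) and summarised with Python 3.11.15 and pandas 2.3.3. A called gene had a Benjamini-Hochberg adjusted p below 0.05 over all genes and a log2 fold change past 0.6 in size. Fractions were compared as an interaction over the 12 libraries of CTRL and 1 treatment. Totals of 16175394 to 62953314 counts set the precision, together with the spread of replicates. This spread was estimated over all groups in a fit, with information shared between genes. A p-value therefore does not rest on the 3 libraries of a group alone. Within groups, replicates differed by more than counting noise (chi-square per degree of freedom 8.11 to 44.6). Same-numbered nuclear libraries deviated together (correlations 0.23 to 0.89, 12 of 12 over 0.1); a replicate block changed no nuclear call of a member. Alternatives were normalization (RLE, total counts, upper quartile), no fold threshold, no filter, the block, counts thinned to 1 depth, snoRNA rows added to the host, the 2 groups alone, DESeq2 1.42.0, and each library left out. The block was also fitted in mRNA with the numbers of CTRL replicates 1 and 2, which are in doubt, exchanged. The tests were tried on simulated data first.

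The members and lists were chosen with earlier results of these data known. Every member was named; of each list at most the 3 called genes with the smallest adjusted p in a comparison, of the other snoRNA hosts in protein-coding genes the counts alone, and the 3 genes most like a member. Sequences were read from the hg38 reference with samtools 1.23.1 and from RefSeq windows. A few items among the marker genes and the genes most like a member are not reported here.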

Additional observations from a re-analysis of the deposited data

Results flagged for a closer look

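The same contrast gave different values between time points or fractions for 3 members and 1 snoRNA row, each by a test of the difference itself. From IM 1h to IM 6h in mRNA, SNHG15 had a log2 change of -1.49 (SE 0.31, edgeR adjusted p = 0.00272). Over the same interval SNHG7 had -0.85 (SE 0.26, edgeR adjusted p = 0.0320), a value that lost its call when replicate 2 or 3 of IM 1h or any IM 6h library was left out. From KCl 1h to KCl 3h SNHG1 had a log2 change of 0.76 (SE 0.13, edgeR adjusted p = 0.000488).

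The response of the SNORA73B row to JTE-607 at 1 h was 2.64 higher in nuclear RNA than in mRNA in log2 units (SE 0.27, edgeR interaction adjusted p = 0.00113), and it was called under all 15 alternatives run. The mRNA side rests on 8 to 77 counts a library in CTRL and JTE 1h. No separate search for single outlying libraries was made in groups of 3, beyond leaving out each library in turn.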

How the results depend on the processing

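Of 16 calls of a member against CTRL, 7 held under every alternative, 9 were lost under at least 1, and 11 further pairs of member and comparison were called under an alternative that kept the fold threshold; no value of these pairs reversed. Dropping the threshold alone added 19 pairs. That setting cannot remove a call, yet it is counted among the alternatives under which a call held. The counts called against CTRL were 35 with no fold threshold, 22 with no filter on low counts, 18 with DESeq2 and with the replicate block, 17 with RLE, 16 with thinned counts, 15 with total counts and with snoRNA rows added, and 14 with the 2 groups alone. Upper quartile scaling, chosen after seeing the data, gave 16. The recomputed treatment and time comparisons below were also added after seeing the data.

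With no fold threshold, the members called lower in mRNA numbered 2 at IM 6h, 5 at IM 18h (and 1 higher), 2 at JTE 1h, 1 at JTE 6h, 1 at JTE 18h and 2 at KCl 1h; in nuclear RNA there were 8 lower at IM 18h, 4 lower at JTE 1h and 3 higher at KCl 1h. In either direction it gave 4 from IM 1h to 6h, 1 from IM 6h to 18h, 1 in each JTE interval, 2 from KCl 1h to 3h, 2 and 5 between imatinib and JTE-607 at 6 h and 18 h, 2 between KCl and imatinib in mRNA, and in nuclear RNA 5 between KCl and JTE-607 and 4 between KCl and imatinib. With no filter, 3 were lower at IM 6h, 2 at JTE 1h, 1 at JTE 6h and 2 at KCl 1h, and 1 was called from IM 6h to 18h, 2 from KCl 1h to 3h, 2 between imatinib and JTE-607 at 18 h and 3 between KCl and imatinib in mRNA. With the 2 groups alone, 0 were lower at JTE 1h and 0 at KCl 1h, and 1 was called from IM 1h to 6h and 1 between KCl and JTE-607 in mRNA. DESeq2 gave 2 lower at KCl 1h, thinning gave 0 lower at KCl 3h, and both thinning and upper quartile scaling gave 1 between KCl and JTE-607 in mRNA. DESeq2 and upper quartile scaling gave 2 from KCl 1h to 3h. SNHG16 at IM 18h in mRNA was gained with RLE, no filter, thinned counts, the 2 groups alone and DESeq2. At KCl 3h SNHG6 was gained with no fold threshold, SNHG5 was lost with total counts and SNHG12 with the 2 groups alone. Nuclear SNHG3 at IM 18h was lost with snoRNA rows added. The shares of all genes called under these settings are not given here, so these counts of members cannot be set beside them. Many genes differed in some comparisons. In nuclear RNA at IM 18h 11434 of 21929 genes had an unadjusted edgeR p below 0.05, beside 8 of 10 members.

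In mRNA the replicate numbers, as the table's columns give them, did not pair the libraries: 7 of 24 correlations of same-numbered deviations exceeded 0.1, from -0.36 to 0.88. The replicate block kept all 16 calls and gave 2 lower at IM 6h (SNHG7 added), 2 lower at JTE 1h (SNHG12 added) and 2 from KCl 1h to 3h. The numbers of CTRL replicates 1 and 2 are in doubt: correlations were above 0 in 8 of 8 groups for number 3 but below 0 in 7 of 8 for number 1 and 8 of 8 for number 2, and the study's list of library sizes gives the pair the opposite numbers. With these exchanged, an alternative added after seeing the data, 23 of 24 correlations exceeded 0.1 (0.055 to 0.88), and the replicate block kept all 10 mRNA calls and gave 2 lower at JTE 1h and 1 lower at JTE 6h (SNHG12 in both). Replicates are named here as the columns number them.

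On leaving out 1 library at a time, the members called lower in mRNA ranged from 1 to 2 at IM 6h, 1 to 4 at IM 18h, 0 to 1 at JTE 1h, JTE 6h, KCl 1h and KCl 3h, and those called higher at KCl 3h from 1 to 3. Nuclear SNHG7 at IM 18h was lost without CTRL replicate 3. Nuclear SNHG16 at IM 18h was gained without CTRL replicate 1 or IM 18h replicate 2. In nuclear RNA the members called ranged from 0 to 2 lower at JTE 1h and 1 to 2 lower at KCl 1h. In either direction they ranged from 1 to 2 from IM 1h to 6h, from KCl 1h to 3h, between imatinib and JTE-607 at 6 h and 18 h and between KCl and JTE-607 in mRNA, from 0 to 1 between KCl and imatinib in mRNA, and from 1 to 3 between KCl and JTE-607 in nuclear RNA. Depth and spread limit the members unequally: at IM 18h in mRNA the SE of the log2 change was 0.33 for SNHG12 and 0.33 for SNHG15 but 0.091 for SNHG6, so that a difference at the fold threshold is less detectable for the first 2.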
